A study of Mus musculus with 6 samples.

Results

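The genes described here are 10 core genes of the transforming growth factor beta (TGF-beta) pathway: the ligands Tgfb1, Tgfb2 and Tgfb3, the receptors Tgfbr1, Tgfbr2 and Tgfbr3, the signal transducers Smad2 and Smad3, the inhibitory Smad7 and the corepressor Ski. They were taken by symbol from 19938 single-named genes on the arrays, and each of the 10 is read by 1 probe set. RNA came from mouse bone marrow cells sorted for a fluorescent reporter 72 hours after transduction with a retroviral MSCV vector, which carried MN1, a transcriptional coregulator found overexpressed in myeloid leukaemia, or no insert (MSCV-IRES-GFP). Both groups of 3 arrays therefore share the vector backbone and the sort, and the series description speaks of 3 independent experiments. The reporter is GFP in the sample labels and EYFP in that description; mouse strain, age, sex, pooling of animals, culture conditions and the species of the MN1 cDNA were not stated.

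TGF-beta ligands are secreted in a latent form and, once released, bind Tgfbr2, which recruits and phosphorylates Tgfbr1; Tgfbr3 (betaglycan) presents ligand to them. Tgfbr1 then phosphorylates Smad2 and Smad3, which join Smad4 and enter the nucleus to regulate transcription, while Smad7 blocks the receptor and is itself induced by the pathway, and Ski holds the Smad complex in a repressive state. In haematopoiesis the pathway is known as a brake on the cycling of stem and progenitor cells, and megakaryocytes are known as a source of Tgfb1 in marrow.

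Marrow identity was present on all arrays: the leukocyte gene Ptprc lay between 10.25 and 10.82, Kit between 10.46 and 11.24 and the myeloperoxidase gene Mpo between 9.93 and 12.82 on the log2 scale. The mouse gene Mn1 was higher in every MN1 array (6.39 ± 0.28 against 5.18 ± 0.33, SD, n = 3). It was dim, at a mean level of 5.78, and 2.3-fold higher (adjusted p = 0.584, limma). As the species of the MN1 cDNA was not stated, whether the probe set reads the transduced or the endogenous transcript is unknown. In limma with Benjamini-Hochberg adjustment over all genes, 0 of 19938 genes passed an adjusted p of 0.05 (a background of 0%), the lowest value being 0.579. Without adjustment, p was under 0.05 for 832 genes with a higher mean in MN1 and 843 with a lower one (977 and 400 after median-centring the arrays). Levels of cell type markers differed among the arrays, also within a group. Granulocyte markers (9 genes) averaged 8.58 to 12.41 over the empty vector arrays and 9.26 to 10.35 over the MN1 arrays. Megakaryocyte and platelet markers (6 genes) averaged 9.0 to 10.37 and 10.02 to 11.58, and monocyte and macrophage markers (8 genes) 9.42 to 10.01 and 10.32 to 10.73. The monocyte and macrophage mean was thus higher on every MN1 array than on any empty vector array. In bulk RNA, a change in the share of a cell type and a change in RNA per cell cannot be told apart.

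None of the 10 genes passed adjustment, so every difference below is a measured value and not a call. In the mean, MN1 lay above for 5 of the 10 and below for 5; the median log2 difference was -0.02, against -0.03 over all genes tested. The largest differences were in Smad3 (0.59), Tgfb3 (0.54), Tgfbr2 (0.50) and Tgfb2 (-0.33). The MN1 and empty vector arrays were fully separated for 1 gene, Tgfb2, which lay lower with MN1. Over all genes, 10.3% were separated in that direction and 5.71% with MN1 above, so 1 of 10 is close to the background. By limma, 1 of the 10 had an unadjusted p under 0.05, again Tgfb2, where 4.23% of all genes did in the lower direction and 4.17% in the higher.

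**Figure D1:**
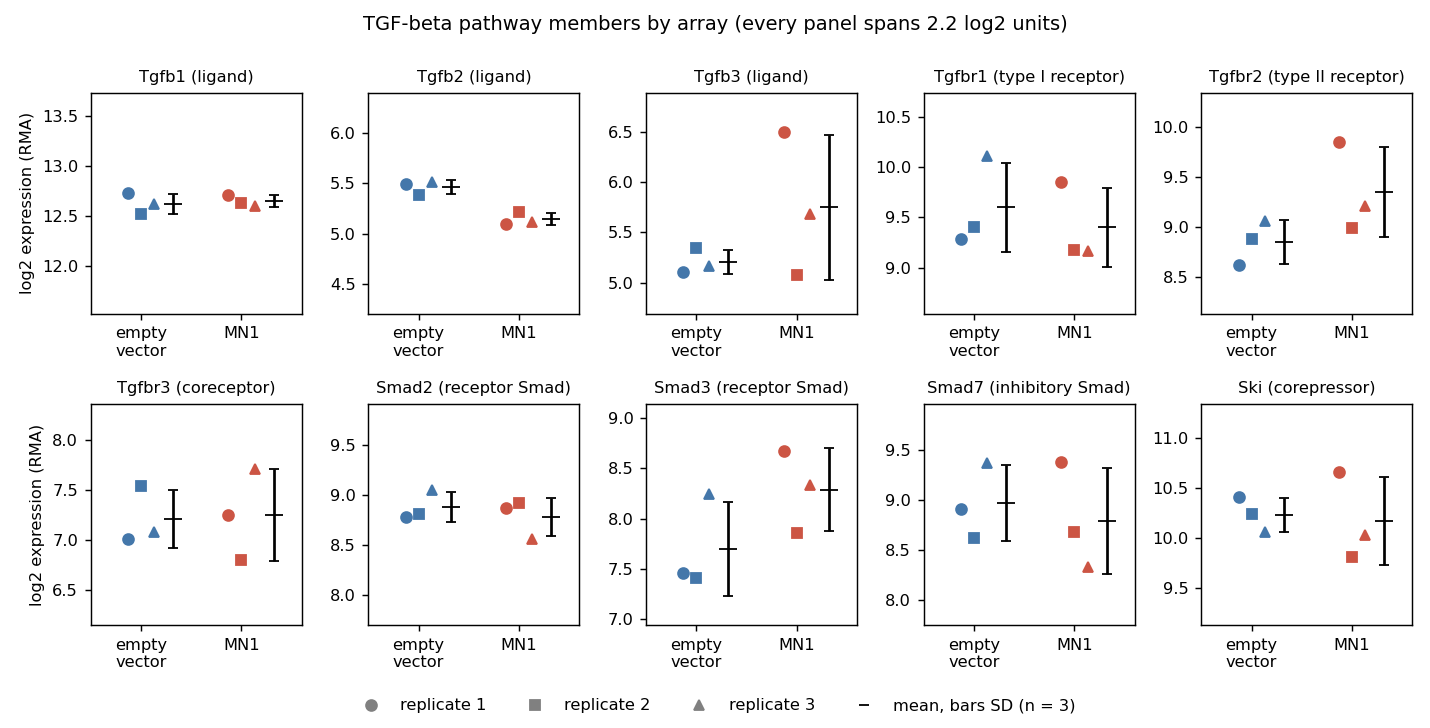
Log2 expression (RMA) of the 10 genes, 1 panel per gene, with 3 empty vector arrays (blue) and 3 MN1 arrays (red), marker shape giving the replicate number and black bars the mean and SD; every panel spans the same log2 range. Tgfb2 is the panel in which the groups are apart, Tgfb1 is nearly level at 12.52 to 12.73, and MN1 replicate 1 is the highest array for Tgfb3, Tgfbr2, Smad3, Smad7 and Ski.

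Among the ligands, Tgfb1, the main form in blood and immune cells, was steady. It measured 12.71, 12.63 and 12.60 in MN1 replicates 1 to 3 and 12.73, 12.52 and 12.62 in the empty vector arrays. The groups overlapped throughout, and the highest and the lowest array were both empty vector. The log2 difference was 0.03 ± 0.10 (SE), and its 95% interval of -0.21 to 0.26 leaves room for small changes in either direction. The residual spread of Tgfb1 (pooled SD 0.08) was below that of most genes, at percentile 11.8 of all genes tested.

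Tgfb2 measured 5.09, 5.21 and 5.11 with MN1 and 5.49, 5.38 and 5.51 with the empty vector. All 3 MN1 arrays lay below all 3 empty vector arrays, with a gap of 0.17 between the nearest pair. The log2 difference was -0.33 ± 0.09 (SE; 95% interval -0.55 to -0.10; adjusted p = 0.584, limma), which is 1.25-fold lower. Leaving out any 1 array kept it between -0.37 and -0.30. Genes at that level were mostly lower as well. Of the 1715 other genes with a mean within 0.25 of that of Tgfb2, 79.1% were lower with MN1, with a median difference of -0.12, and for 19.1% the MN1 arrays lay wholly below. In that set, 5.83% of genes had a difference as low as that of Tgfb2 or lower. Of the T and natural killer cell markers, 7 of 9 also had a lower mean with MN1. Their list mean was 5.20 to 5.45 against 5.61 to 5.88. Apart from Thy1 (9.86), these markers had mean levels of 3.72 to 5.88, in the dim range around Tgfb2 (5.30). The 7 of 9 is therefore close to the share of 79.1% among genes at the level of Tgfb2. Neither the part of these markers in the Tgfb2 value nor that of signal level was tested.

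**Figure D2:**
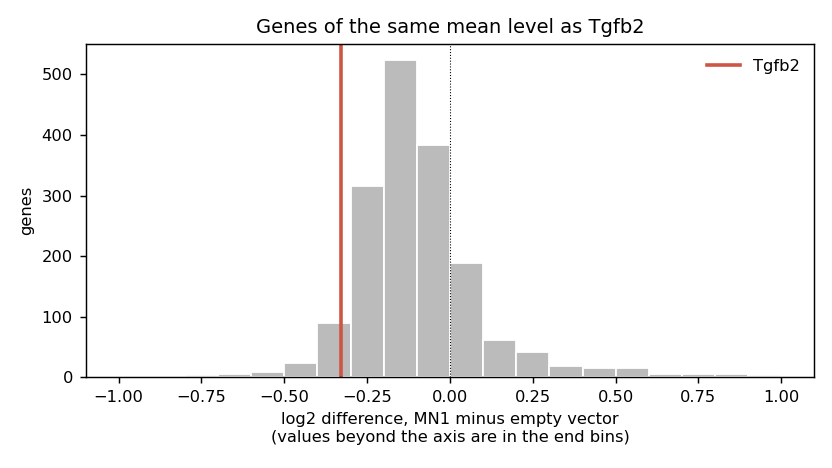
Histogram of the log2 difference, MN1 minus empty vector, for the 1715 genes whose mean level lay within 0.25 of that of Tgfb2, with the number of genes on the vertical axis and Tgfb2 as the red line. Most of these genes (79.1%) lie to the left of 0, with a median of -0.12, and Tgfb2 at -0.33 lies in its lower tail.

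Tgfb3 varied most among the ligands. It measured 6.50, 5.08 and 5.68 with MN1 and 5.11, 5.35 and 5.17 with the empty vector. MN1 replicates 1 and 3 lay above every empty vector array, but MN1 replicate 2 was the lowest of the 6 arrays. The difference of 0.54 ± 0.34 (SE; adjusted p = 0.634, limma) was smaller than the range of 1.43 among the MN1 arrays, and it was 0.17 without MN1 replicate 1 and 0.88 without MN1 replicate 2. Of 1659 other genes at a like level, 1.45% had a difference as high or higher.

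The signalling receptors differed in opposite directions in the mean. Tgfbr2, which binds the ligand and starts the signal, measured 9.85, 8.99 and 9.21 with MN1 and 8.62, 8.88 and 9.06 with the empty vector. MN1 replicates 1 and 3 were the highest of the 6 arrays, and the overlap came from MN1 replicate 2 lying below empty vector replicate 3. The log2 difference was 0.50 ± 0.24 (SE; 95% interval -0.08 to 1.08; adjusted p = 0.594, limma), or 1.41-fold, and 0.25 without MN1 replicate 1. Genes at the level of Tgfbr2 were mostly higher as well. Of 1277 others, 34.8% were lower with MN1, the median difference was 0.08, and 5.87% had a difference as high or higher. Tgfbr1, the kinase that phosphorylates Smad2 and Smad3, measured 9.85, 9.18 and 9.17 with MN1 and 9.29, 9.40 and 10.11 with the empty vector. Here 1 array in each group was high, MN1 replicate 1 and empty vector replicate 3, and the other 4 lay between 9.17 and 9.40. Its difference of -0.20 ± 0.28 (SE) became 0.06 without empty vector replicate 3. The coreceptor Tgfbr3 measured 7.25, 6.80 and 7.71 with MN1 and 7.01, 7.54 and 7.08 with the empty vector. The groups were interleaved, and the difference was 0.04 ± 0.26 (SE; 95% interval -0.58 to 0.66).

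Of the receptor-activated Smads, Smad3 had the larger difference. It measured 8.67, 7.86 and 8.34 with MN1 and 7.46, 7.41 and 8.25 with the empty vector. MN1 replicates 1 and 3 were the highest arrays, and empty vector replicate 3 lay above MN1 replicate 2. The log2 difference was 0.59 ± 0.30 (SE; 95% interval -0.13 to 1.30; adjusted p = 0.594, limma), or 1.5-fold; it ran from 0.39 without MN1 replicate 1 to 0.86 without empty vector replicate 3. Genes at the level of Smad3 were mostly higher as well. Of 1268 others, 32.3% were lower with MN1, the median difference was 0.11, and 6.55% had a difference as high or higher. Smad2 measured 8.87, 8.92 and 8.56 with MN1 and 8.78, 8.81 and 9.05 with the empty vector, with overlapping groups and a difference of -0.10 ± 0.14 (SE). Their shared partner Smad4 was outside the 10; it differed by 0.11 ± 0.11, with an MN1 mean of 9.87 and an empty vector mean of 9.76.

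Smad3 had its levels in nearly the reverse order of the mean of a list of mast cell, basophil and eosinophil markers, though not of every marker in it. The mean of these 7 markers was 9.69, 10.65 and 9.85 in MN1 replicates 1 to 3 and 11.16, 11.13 and 9.89 in empty vector replicates 1 to 3. The 3 arrays with a marker mean under 10 were those with Smad3 above 8, namely MN1 replicates 1 and 3 and empty vector replicate 3. Prg2, Epx, Ms4a2 and Mcpt8 were each lower on these 3 arrays than on any other array. Fcer1a was instead higher on them, at 10.37, 10.68 and 10.86 against 10.18, 10.03 and 10.34. Cpa3 and Siglecf were mixed. The mean of the 9 granulocyte markers was lowest on the same 3 arrays, at 9.41, 9.26 and 8.58 against 10.35 on MN1 replicate 2 and 11.29 and 12.41 on empty vector replicates 1 and 2. Not every marker followed that mean: on MN1 replicate 3, Mmp8 was at its highest (12.17) and S100a9 was high (11.86). S100a8 was lower on MN1 replicate 2 (10.66) than on MN1 replicate 3 (11.04). Such an order is not rare: 401 of 19931 other genes (2.01%) had an r of -0.9 or lower with the mean of the 7 markers over the 6 arrays. As a list, 6 of the 7 mast cell, basophil and eosinophil markers were lower with MN1 in the mean and 1 higher, none of them at a level of 0, since these arrays report no zero. The Y-linked genes Eif2s3y, Uty and Kdm5d were also highest on those 3 arrays, and Xist was lowest on them. Eif2s3y measured 8.26, 8.57 and 8.24 there, 7.04 on MN1 replicate 2 and 6.72 and 3.43 on empty vector replicates 1 and 2. The part of none of these in the Smad3 value was tested.

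The negative regulators showed no separation of the groups. Smad7 measured 9.38, 8.68 and 8.33 with MN1 and 8.91, 8.62 and 9.37 with the empty vector. MN1 replicate 1 and empty vector replicate 3 were the high arrays, as for Tgfbr1. The difference was -0.17 ± 0.31 (SE; 95% interval -0.91 to 0.57), and it was 0.06 without MN1 replicate 3 and 0.03 without empty vector replicate 3. Ski measured 10.66, 9.81 and 10.03 with MN1 and 10.41, 10.24 and 10.06 with the empty vector. MN1 held both the highest array and the pair of lowest ones, and the difference was -0.07 ± 0.23 (SE; 95% interval -0.62 to 0.49).

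**Figure D3:**
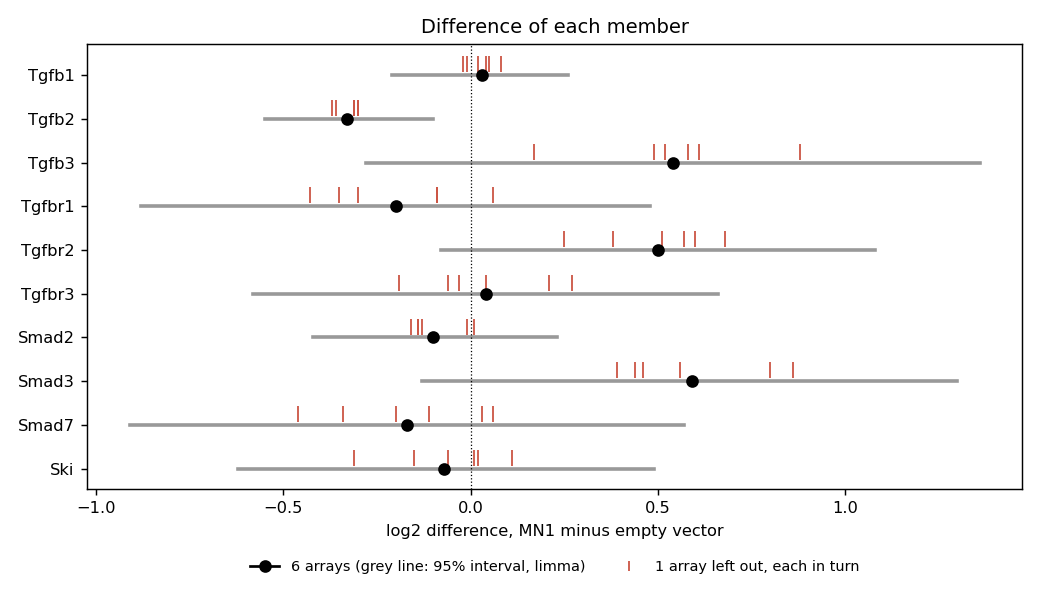
Log2 difference, MN1 minus empty vector, of each gene (black point) with its 95% interval from limma (grey line) and the value with each array left out in turn (red ticks). The interval of Tgfb2 is the one that excludes 0; the ticks of Tgfb2, Tgfb3, Tgfbr2 and Smad3 stay on one side of 0, and those of the other 6 genes cross it.

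Within a group, 7 of the 10 genes were more variable than most. The pooled SD of Tgfb3, the 3 receptors, Smad3, Smad7 and Ski was 0.34 to 0.51, at percentiles 82.7 to 92.9 of all genes tested. Genes of a like level had median pooled SDs of 0.15 for Tgfb3 and 0.22 to 0.26 for the other 6. Tgfb1, Tgfb2 and Smad2, at 0.08, 0.07 and 0.17, lay below the medians of 0.14, 0.15 and 0.24 for genes of their own level. For 5 of the 10, MN1 replicate 1 was the highest array, against 16.5% of all genes. All 6 megakaryocyte and platelet markers were also highest on that array, as were 5 of 8 monocyte and macrophage markers, 15 of 28 partners of the receptors and Smads and 9 of 17 genes known to be induced by TGF-beta. The other pathway lists had smaller shares. They were 5 of 18 latency genes, 4 of 11 other receptors, 1 of 4 other Smads, 0 of 12 other ligands and 2 of 7 genes known to be repressed. The part of the marker cells in these values was not tested. The high arrays fell into a pair of patterns. Tgfb3, Tgfbr2 and Smad3 were highest on MN1 replicate 1, and MN1 replicate 3 came next for each. Tgfbr1 and Smad7 were instead high on MN1 replicate 1 and empty vector replicate 3. Pmepa1, a TGF-beta target that feeds back on the receptor, and Junb, an early target, had the same high pair: Pmepa1 measured 9.62, 8.56 and 8.14 with MN1 and 9.09, 8.07 and 9.53 with the empty vector, and Junb 9.56, 8.58 and 8.73 against 8.76, 9.04 and 9.38. Both were picked from the 17 induced genes after their values were seen. Cdkn1c, Klf11, Gadd45b and Tsc22d1 of that list were also highest on this pair. Tgfbi, Cdkn2b, Itgae and Col1a2 were instead lowest on MN1 replicate 1. Fn1 was highest on MN1 replicate 1 but lowest on empty vector replicate 3. How many of all genes had this high pair was not counted.

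**Figure D4:**
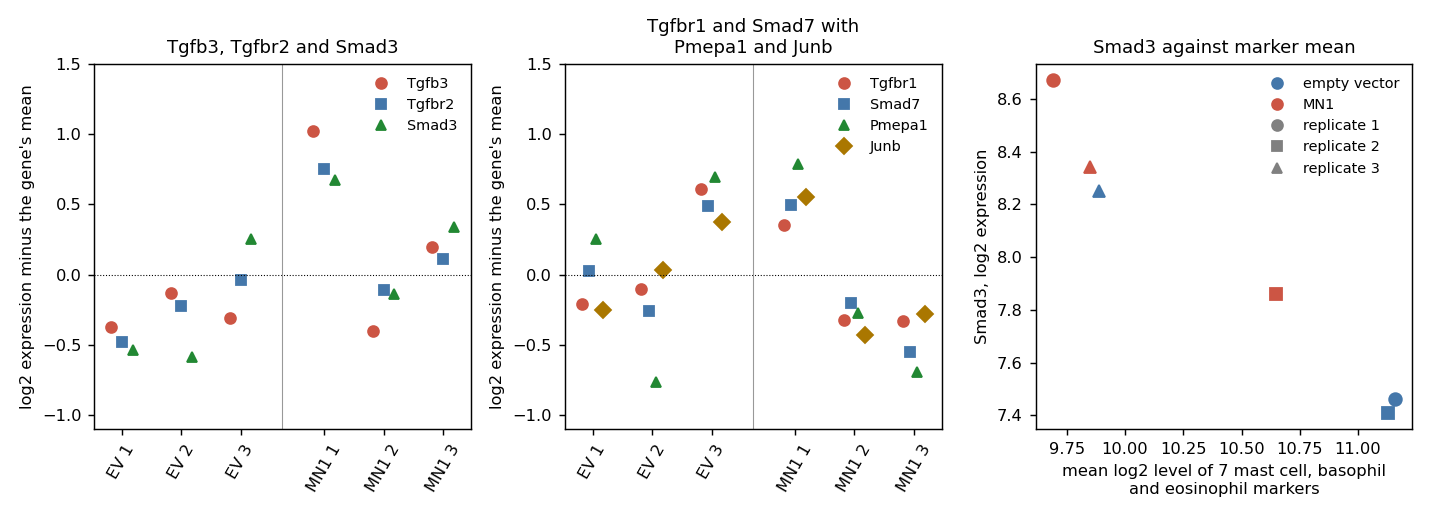
Left and middle, log2 expression minus the mean of that gene over the 6 arrays, for Tgfb3, Tgfbr2 and Smad3 and for Tgfbr1, Smad7, Pmepa1 and Junb, by array (EV, empty vector). Pmepa1 and Junb were picked after their values were seen. Right, Smad3 against the mean log2 level of 7 mast cell, basophil and eosinophil markers, 1 point per array. MN1 replicate 1 stands highest on the left, MN1 replicate 1 and empty vector replicate 3 stand together in the middle, and on the right the arrays run from high Smad3 with low marker mean to the reverse.

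By Pearson's r of log2 values over the 6 arrays, the genes most like Smad3 were Med6 (0.999), Tmem87a (0.994) and Zbtb21 (0.993), those most like Tgfb3 were Ermard, Tyro3 and Mroh1 (0.991, 0.989 and 0.988), and those most like Tgfbr2 were Fam214a, Rab11a and Anapc10 (0.987, 0.984 and 0.983). Over so few arrays a high r is common: 370, 236 and 306 genes had an r above 0.9 with Smad3, Tgfb3 and Tgfbr2.

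Smad3 and Tgfbr2 are shown with the sequence upstream of their start sites because they were high on the same arrays. The sequences are the 250 bases before the annotated start, 5′ to 3′ on the strand of the gene, from RefSeq (GRCm38.p6), where 6 of the 10 genes had such an entry. Smad3 is at chr9:63757995-63758244 and Tgfbr2 at chr9:116175364-116175613, both on the minus strand. Capitals mark a match to a motif.
Smad3: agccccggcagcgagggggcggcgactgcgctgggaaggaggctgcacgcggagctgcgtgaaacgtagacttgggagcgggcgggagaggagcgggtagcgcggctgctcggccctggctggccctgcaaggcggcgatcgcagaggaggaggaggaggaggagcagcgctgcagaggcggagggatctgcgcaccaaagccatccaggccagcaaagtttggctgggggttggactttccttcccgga
Tgfbr2: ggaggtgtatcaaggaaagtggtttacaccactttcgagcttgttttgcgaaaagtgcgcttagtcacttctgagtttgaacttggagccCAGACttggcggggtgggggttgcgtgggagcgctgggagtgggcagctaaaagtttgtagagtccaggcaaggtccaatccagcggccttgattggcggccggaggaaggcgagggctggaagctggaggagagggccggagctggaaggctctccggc
The motifs searched, on both strands, were CAGAC and GTCTAGAC, to which Smads are known to bind, the GC-rich Smad motif GGCGC and the nuclear receptor half-site AGGTCA; none contains another. The Tgfbr2 window holds 1 CAGAC and the Smad3 window no match. Of 32851 mouse windows of that length, 42.2% hold CAGAC, 0.167% GTCTAGAC, 32% GGCGC and 14% AGGTCA, so the single match is common. The GC content was 69.2% for Smad3 and 58.4% for Tgfbr2.

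The other genes of the pathway were grouped into 7 lists, and none of their genes passed adjustment (0 in each list). Counts of genes with separated groups in these lists are to be read against the shares over all genes, 5.71% with MN1 above and 10.3% with MN1 below. Counts of higher and lower means are to be read against 43.3% of all genes with a higher mean, a share that differed with level. Among genes of latency and activation of the ligands, 12 of 18 measured had a higher and 6 a lower mean, and the median difference was 0.07 (all genes, -0.03). Mmp9, a matrix protease that can release latent TGF-beta, had a log2 difference of -0.97 ± 0.32 (SE) and was the 1 gene of the list with separated groups, at 8.52, 9.21 and 9.25 with MN1 and 9.74, 10.58 and 9.58 with the empty vector. Ltbp1, a latent TGF-beta binding protein, differed by 0.80 ± 0.51. It measured 8.31, 7.31 and 6.23 with MN1 and 6.92, 6.28 and 6.25 with the empty vector, so MN1 replicate 1 was high and MN1 replicate 3 the lowest array. The mean of the megakaryocyte and platelet markers was likewise highest on MN1 replicates 1 and 2 (11.58 and 10.90) and 10.02 on MN1 replicate 3; its part was not tested. The membrane protease gene Mmp14 differed by 0.68 ± 0.45 and the gelatinase gene Mmp2 by 0.63 ± 0.69, both with overlapping groups.

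Among partners of the receptors and Smads, the mean was higher for 20 of 28 and lower for 8, and the median difference was 0.12. The list averaged 8.67 to 9.04 over the arrays, and genes of such a level were mostly higher as well. Of 1341 genes near the level of Smad2 (8.83), 33% were lower, with a median difference of 0.10. Groups were separated for 3 with MN1 above and 1 below (5.71% and 10.3% of all genes, but 10.4% and 1.64% near the level of Smad2). The 3 were Cd109, a coreceptor that dampens the signal (0.63 ± 0.31, SE), and Nedd4l and Usp15, a ubiquitin ligase and a deubiquitinase that act on the receptor and Smads in opposite senses (0.33 ± 0.12 and 0.31 ± 0.09). Cd109 was dim and its groups were only 0.04 apart, with 5.79 on MN1 replicate 1 and 4.33 to 4.77 on the other arrays. The 1 below was the Smad corepressor gene Tgif2 (-0.22 ± 0.10). Dab2, an endocytic adaptor that links the receptors to Smads, differed by 0.91 ± 0.53 and measured 11.92, 9.65 and 10.56 with MN1 and 9.94, 9.57 and 9.88 with the empty vector. Its MN1 arrays showed the same order as Tgfb3, with replicate 1 high and replicate 2 low. Tgfbrap1, a receptor-associated protein, differed by 0.37 ± 0.21 and the ubiquitin ligase gene Wwp1 by 0.36 ± 0.18.

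Of the other receptors of the superfamily, 6 of 11 had a higher and 5 a lower mean (median difference 0.09), and 3 lay wholly above and 1 below (5.71% and 10.3% of all genes); the 1 below was Bmpr1b, at -0.15 and levels of 4.11 to 4.34. Eng, the endothelial and stem cell coreceptor endoglin, measured 9.93, 10.04 and 10.13 with MN1 and 9.14, 8.32 and 9.50 with the empty vector. Its MN1 arrays were tightly grouped above all empty vector arrays, and it differed by 1.04 ± 0.29 (SE; adjusted p = 0.584, limma). The activin type I receptor gene Acvr1b differed by 0.57 ± 0.21 and the BMP type II receptor gene Bmpr2 by 0.48 ± 0.16, both with separated groups, and Acvrl1, a type I receptor that pairs with Eng, by 0.41 ± 0.17 with overlap. Of the other 4 Smads, the BMP-responsive Smad1 differed by 0.41 ± 0.21, Smad5 by 0.06 ± 0.17, the inhibitory Smad6 by 0.03 ± 0.13 and Smad9 by -0.18 ± 0.14, all with overlapping groups. Of 12 other ligands, 3 had a higher and 9 a lower mean (median difference -0.16), with list means of 5.68 to 5.91 over the arrays. Among 1659 genes near the level of Tgfb3 (5.48), 78.2% were lower, with a median difference of -0.13. Bmp2 was higher by 2.33 ± 0.30 and lay wholly above, while Bmp7 (-0.58 ± 0.14) and Nodal (-0.38 ± 0.10) lay wholly below, as did Lefty1. That is 1 of 12 above and 3 below, against 5.71% and 10.3% of all genes and 2.23% and 20.4% near the level of Tgfb3. Nodal, at 5.04 to 5.57, is at the level of Tgfb2, where most genes were lower with MN1. The activin subunit gene Inhba differed by 0.39 ± 0.58, with empty vector replicate 2 low at 7.85 and the other arrays at 9.10 to 10.07.

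Genes known to be induced by TGF-beta had no common direction: 7 of 17 measured had a higher and 10 a lower mean (median difference -0.08), and 0 lay wholly above and 3 below, where 5.71% and 10.3% of all genes did. The largest difference was in Cdkn2b, a cell cycle inhibitor gene that TGF-beta is known to induce. It measured 7.0, 7.64 and 7.76 with MN1 and 8.48, 8.04 and 8.69 with the empty vector, so that all MN1 arrays were lower, with a log2 difference of -0.94 ± 0.25 (SE; 95% interval -1.55 to -0.33; adjusted p = 0.584, limma). The other 2 below were the collagen genes Col1a1 and Col1a2 (-0.34 and -0.18). Klf10, an early response gene, differed by 0.61 ± 0.39 and was high on MN1 replicate 1 alone, at 10.17 against 8.42 to 8.88 on the other arrays. Tsc22d1 differed by 0.53 ± 0.52 and the integrin gene Itgae by -0.41 ± 0.24, both with overlapping groups. Of 7 genes known to be repressed, 2 had a higher and 5 a lower mean (median difference -0.04), with no separated groups. Id2 differed by 0.64 ± 0.27 and Id1 by -0.46 ± 0.19, both inhibitors of basic helix-loop-helix factors, and the cell cycle genes Cdc25a and Ccna2 by -0.43 ± 0.19 and -0.42 ± 0.40. Genes of these lists also respond to other signals, so their levels do not measure the activity of the pathway.

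**Figure D5:**
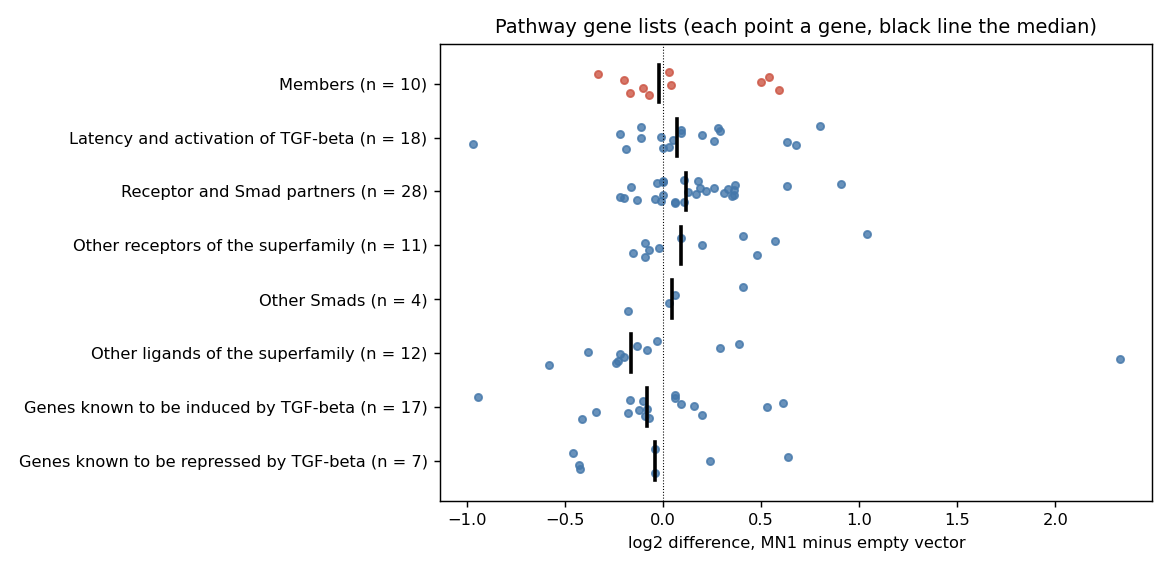
Log2 difference, MN1 minus empty vector, of each gene (point) in the 10 core genes (red) and the 7 lists of other pathway genes (blue), with the list median as a black line. List medians lie between -0.16 and 0.12; Bmp2 at 2.33 and Eng at 1.04 are the furthest to the right, and Mmp9 at -0.97 and Cdkn2b at -0.94 the furthest to the left.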

How the data were processed

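Total RNA (200 ng) of sorted mouse marrow cells was labelled by a whole-transcript sense protocol and, per the labels' protocols, read on one-colour arrays from Affymetrix. The authors deposited log2 values for 35557 probe sets, processed by RMA according to the submitters' processing notes, whose version is not given in the sources used here. That they are log2 follows from their range of 2.29 to 14.80. RMA compresses dim values and so understates their fold changes; no detection call was used. All 6 columns were used. Probe sets with 1 gene symbol in the 2016 platform annotation numbered 21789; 1621 had several and 12147 none. Where a gene had several (999 genes), the set with the highest mean was kept.

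Groups came from the sample titles. No label ties a replicate number to a culture or animal, so p-values measure only the spread between these arrays. The test was limma 3.58.1 (R 4.3.3, lmFit and eBayes, two-sided, no block, Benjamini-Hochberg over all genes), with moderated SEs and 95% intervals. It was also run on simulated data in which the noise of each gene was drawn independently. The real arrays share variation across genes, so that run does not show how the test behaves on them. The 10 genes and the 16 other lists were chosen with earlier results of these data known. Of 183 list entries, 172 were measured. Named besides the 10 were Mn1, Smad4, up to 4 genes per pathway list with the largest absolute difference, and the 3 genes most like each of the 3 core genes with the largest difference. Nedd4l, Usp15, Tgif2, Bmpr1b, Lefty1, Col1a1, Col1a2, Pmepa1, Junb, Cdkn1c, Klf11, Gadd45b, Tgfbi, Fn1 and the markers named singly were chosen after their values were seen. Alternatives were the replicate block, median-centred or quantile-normalized arrays, a filter on the dimmest 40% of probe sets, averaging of probe sets, a trended robust prior, array weights, and each array left out.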

Additional observations from a re-analysis of the deposited data

How the results depend on the processing

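Under all 13 alternatives, 0 of the 10 core genes and 0 of all genes passed an adjusted p of 0.05 in limma (at an unadjusted p under 0.05, 832 higher and 843 lower in the main analysis). Tgfb2, Tgfb3, Tgfbr2 and Smad3 kept their direction in each, with adjusted p values from 0.5 to 0.935 for Tgfb2. Of 130 values of the core genes under these alternatives, 14 had the opposite sign: Tgfbr3 measured -0.04 under quantile normalization and -0.01 under array weights. With 1 array left out in turn, Tgfb1 ran from -0.02 to 0.08, Tgfbr1 from -0.43 to 0.06, Tgfbr3 from -0.19 to 0.27, Smad2 from -0.16 to 0.01, Smad7 from -0.46 to 0.06 and Ski from -0.31 to 0.11. The same removals gave 508 to 1044 genes higher and 398 to 1037 lower, the lowest pair without empty vector replicate 2, and list medians from -0.02 to 0.15 for latency, -0.03 to 0.21 for other receptors, -0.04 to 0.16 for other Smads, -0.15 to 0.07 for induced genes (above 0 without MN1 replicates 2 or 3) and -0.19 to 0.02 for repressed genes. Median-centring gave 400 genes lower and an other-receptor median of 0.12, and array weights one of 0.02. Removing the dimmest 40% of probe sets, which leaves 13681 genes, gave 369 lower and medians of 0.20 for latency, 0.30 for other receptors and -0.08 for other ligands. The cause of the other shifts was not tested. Same-numbered arrays of the groups had correlated deviations of 0.13, 0.075 and 0.324, and MN1 replicate 2 correlated best with empty vector replicate 1 (0.437). The Y-linked genes Eif2s3y, Uty and Kdm5d, in contrast, were highest on replicate 3 and lowest on replicate 2 in both groups. Xist ran the other way in both. Whether the numbers pair the arrays is thus unsettled, and the main analysis used no pairing. Between same-numbered arrays, MN1 lay above throughout for Smad3 and Tgfbr2 and below for Tgfb2, while the other core genes were mixed. With the replicate block 1140 genes were higher and 840 lower at an unadjusted p under 0.05 and no call changed. With 3 arrays a group and no detection call, the signal over background of dim genes such as Tgfb2 is unknown.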
